A study of Mus musculus with 6 samples.

Results

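The claudins and occludin of the mouse colon were followed in 6 RNA sequencing libraries, and no member differed between genotypes past the threshold of the edgeR test. The 10 genes were Cldn1, Cldn2, Cldn3, Cldn4, Cldn7, Cldn8, Cldn12, Cldn15, Cldn23 and Ocln, chosen by symbol from the 21899 genes of the deposited table, and each of the 10 symbols matched 1 row. All 10 passed the filter on low counts, which left 14553 genes for the test. The libraries came from colon tissue of Adamts4 knockout mice (KO, 3 libraries) and wild-type mice (WT, 3 libraries). Animals of both genotypes had received 2.5% dextran sodium sulfate (DSS), a polysaccharide that injures the colonic epithelium, for 7 days. The sources used here do not give the age, sex, strain or knockout allele. They also do not say that each library is 1 animal, and the p-values therefore describe only how these samples spread. Untreated colons were not analysed here.

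Claudins are small membrane proteins that join neighbouring epithelial cells at the tight junction, the seal at the top of the cell layer. Some of them close the gap between cells to ions and others form channels through it, so that the mixture a tissue expresses sets how leaky its epithelium is. Claudin-2 and claudin-15 form channels for small cations, and claudin-2 lets water through as well. Claudin-1, claudin-3, claudin-4 and claudin-8 are counted among the sealing claudins, claudin-7 binds the epithelial adhesion molecule EpCAM, and occludin belongs to another family of junction proteins. In the colon claudin-2 is mostly a protein of the crypts, and in human Crohn's disease claudin-2 has been reported to rise and claudin-8 to fall.

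Adamts4, the deleted gene, was at 0 counts in KO 1, KO 2 and KO 3, against 900, 992 and 997 counts in WT 1, WT 2 and WT 3. Total counts ran from 15786214 to 20348172 in the KO libraries and from 17895970 to 22932125 in the WT libraries. On the first principal component (44.2% of the variance) KO 3 scored 58.3, the other KO libraries -19.3 and 20.0, and the WT libraries -40.7 to 0.74. The pan-epithelial list, with Epcam among its 11 genes, was abundant in each library and summed to 14625 to 16799 TPM (transcript abundance per length, scaled to a fixed total per library) in KO and 13343 to 17248 TPM in WT. Mitochondrial genes took 4.03% to 9.50% of counts in KO and 4.29% to 6.05% in WT. The 10 members together took 0.160% to 0.189% of all counts in KO and 0.133% to 0.172% in WT.

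The upstream sequences of the 3 members with the smallest p-values are shown because Cldn15 and Cldn2 varied together over the libraries and Cldn1 lay in the opposite direction. Each runs 5′ to 3′ over 300 bases, from 250 bases before to 50 bases after the RefSeq transcription start, with matches to the motifs searched in capitals. They lie at chrX:139800558-139800857 on the plus strand (Cldn2), chr5:136967619-136967918 on the plus strand (Cldn15) and chr16:26371790-26372089 on the minus strand (Cldn1), on RefSeq's GRCm38.p6.
Cldn2: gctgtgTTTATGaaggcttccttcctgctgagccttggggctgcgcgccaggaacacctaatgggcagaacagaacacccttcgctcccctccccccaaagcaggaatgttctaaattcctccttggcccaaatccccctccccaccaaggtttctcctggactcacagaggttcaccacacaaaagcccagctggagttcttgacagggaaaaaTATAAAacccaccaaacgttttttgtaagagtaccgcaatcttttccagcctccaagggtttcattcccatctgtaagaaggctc
Cldn15: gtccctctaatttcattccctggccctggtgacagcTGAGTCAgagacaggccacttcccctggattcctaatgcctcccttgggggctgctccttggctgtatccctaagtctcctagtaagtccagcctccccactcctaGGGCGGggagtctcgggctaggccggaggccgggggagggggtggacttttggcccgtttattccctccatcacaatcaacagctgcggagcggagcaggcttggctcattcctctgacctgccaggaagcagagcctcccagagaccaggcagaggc
Cldn1: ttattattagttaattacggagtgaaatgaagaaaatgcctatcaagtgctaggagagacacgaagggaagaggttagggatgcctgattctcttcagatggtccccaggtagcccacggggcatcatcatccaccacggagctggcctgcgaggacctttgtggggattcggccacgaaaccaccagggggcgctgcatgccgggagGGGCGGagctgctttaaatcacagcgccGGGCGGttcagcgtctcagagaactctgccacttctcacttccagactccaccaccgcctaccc

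The motifs, sought on both strands, were the TATA box (TATAAA), the GC box (GGGCGG), the AP-1 motif (TGACTCA), the TCF/LEF motif (CTTTGAT), the CDX motif (TTTATG), the STAT motif (TTCNNNGAA) and the NF-kappaB motif. The Cldn2 window held a TATA box with its first base at position -35 from the start site and a CDX letter match at -244. Among all 32851 promoter windows of the table, 13.6% held a TATA box and 11.9% the CDX letters. The Cldn15 window held an AP-1 match at -214, a motif found in 5.20% of all windows, and a GC box at -108. In the Cldn1 window the matches were 2 GC boxes, at -42 and -14, a motif in 35.7% of all windows. RefSeq windows were matched for 8 of the 10 members, and over their 12 windows the TATA box and the CDX letters were found in Cldn2 alone, while AP-1 was found in Cldn15 and Cldn4. The GC box was in 9 of the 12 member windows, from Cldn1, Cldn3, Cldn4, Cldn7, Cldn12, Cldn15 and Ocln. No member window held the TCF/LEF or NF-kappaB letters, and 3.73% and 0.411% of all windows did. STAT letters occurred in windows of Cldn12 and Cldn7, and in 8.30% of all windows. A letter match describes the sequence and is not a measured binding site.

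Levels of different genes were compared per length, in the TPM of the authors. Cldn7 was the most abundant member, with 698 to 926 TPM over the 6 libraries, followed by Cldn3 with 435 to 653 TPM, and every library had more Cldn7 than Cldn3. The channel-forming claudins came next, Cldn15 at 105 to 208 TPM and Cldn2 at 93.6 to 169 TPM. Their ranges overlapped, and Cldn15 was the higher of the pair in 5 of 6 libraries. Cldn4 (46.4 to 80.4 TPM), Ocln (40.5 to 64.9 TPM), Cldn23 (36.9 to 54.4 TPM), Cldn8 (14.9 to 46.7 TPM) and Cldn12 (27.4 to 35.3 TPM) formed a middle tier in which the ranges of neighbours overlapped. Cldn1 was far below them, at 0.458 to 4.20 TPM.

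The edgeR quasi-likelihood test called 0 of the 10 members at an adjusted p below 0.05, where 0.158% of all tested genes were called. Before adjustment 2 members, Cldn1 and Cldn15, had a p below 0.05, beside 13% of all genes. DESeq2 called 1 member, Cldn1, beside 3.77% of all genes. KO and WT levels did not overlap in 2 members, with KO higher in Cldn23 (1 of 10, against 9.35% of all genes) and KO lower in Cldn1 (1 of 10, against 10.2% of all genes). With 10 members each of these counts rests on 1 or 2 genes. The median log2 fold change of the 10 members, KO minus WT, was 0.08, and that of all tested genes 0.03.

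**Figure D1:**
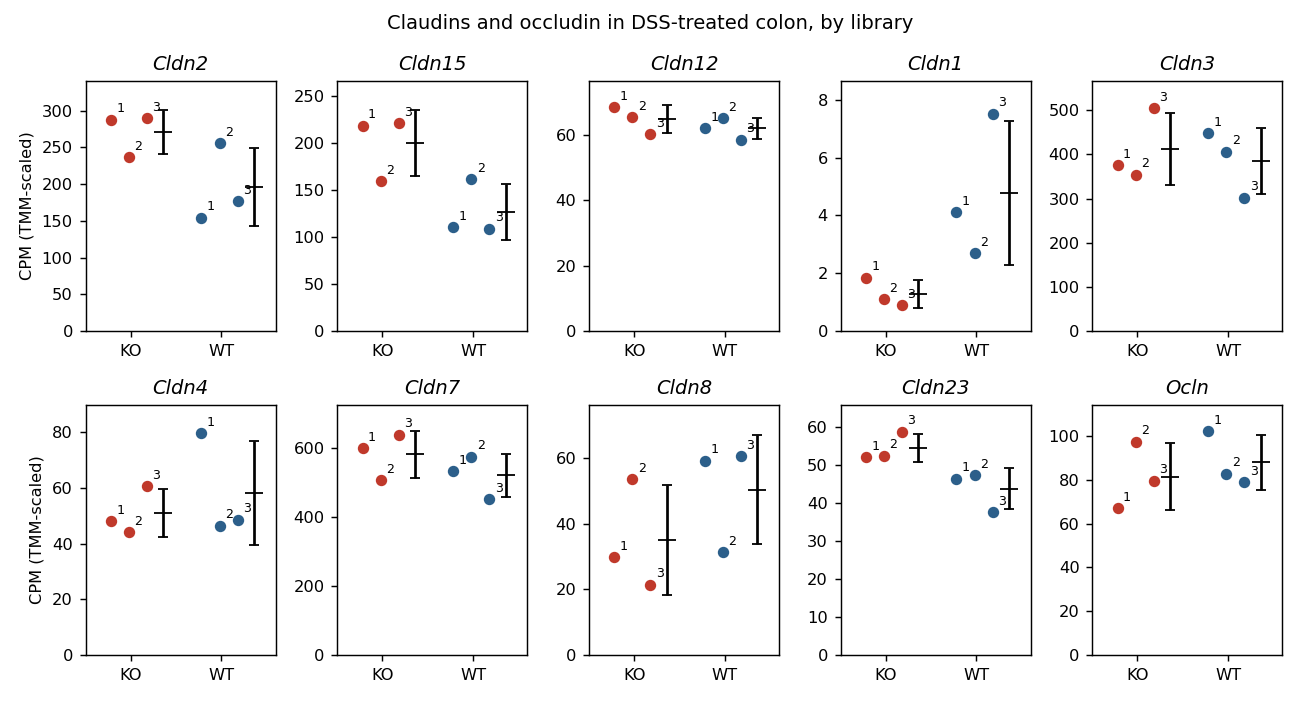
Level of each member in CPM scaled by TMM factors (vertical axes from 0) in the 3 KO libraries (left) and the 3 WT libraries (right), numbered by library, with mean and SD. KO and WT points are separate only for Cldn1 (KO lower) and Cldn23 (KO higher), and WT 2 is the highest WT library for Cldn2 and Cldn15 and the lowest for Cldn8.

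Cldn15, which forms cation channels in the gut (ENSMUSG00000001739, chr5:136966616-136975858, plus strand, GRCm38), was the higher in KO of the channel-forming pair by fold change. In CPM (counts scaled to library size with TMM factors) it had 218, 159 and 221 in KO 1, KO 2 and KO 3, against 110.3, 162 and 108.9 in WT 1, WT 2 and WT 3. KO 1 and KO 3 were high and WT 1 and WT 3 low, while KO 2 and WT 2 lay close together between them, so that the groups overlapped in CPM. In TPM they did not, with 163 TPM in KO 2 and 162 TPM in WT 2 the nearest libraries. The means were 199.6 ± 35.1 CPM in KO and 126.9 ± 30.0 CPM in WT (SD, n = 3 each). Its log2 fold change was 0.65 ± 0.21 (SE), a ratio of 1.57 with a 95% interval of 1.12 to 2.20, and the edgeR adjusted p was 0.261 (unadjusted p = 0.0146). DESeq2 gave an adjusted p of 0.0947.

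Cldn2, the channel for cations and water (ENSMUSG00000047230, chrX:139800828-139811386, plus strand), had a similar arrangement of libraries. Its levels were 288, 236 and 289.6 CPM in KO 1, KO 2 and KO 3, against 155, 255 and 177 CPM in WT 1, WT 2 and WT 3. WT 2 lay above KO 2, and the remaining KO libraries were above all WT libraries. The log2 fold change was 0.47 ± 0.21 (SE), a ratio of 1.39 with an interval of 0.987 to 1.95, with an edgeR adjusted p of 0.398. When single libraries were left out in DESeq2, an alternative added after the data were seen, the fit without WT 2 brought both genes past the threshold (adjusted p = 0.0110 for Cldn15 and 0.0246 for Cldn2), and the fit without KO 2 brought Cldn15 past it (0.0452). The share of all tested genes that these DESeq2 fits called was not computed. In edgeR no fit that left out 1 library called either gene.

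Cldn12, a claudin linked to calcium passage in the intestine (ENSMUSG00000046798, chr5:5489537-5514958, minus strand), had nearly the same level in the groups, 64.8 ± 4.23 CPM in KO and 62.0 ± 3.30 CPM in WT (SD, n = 3 each). Its ratio was 1.05 with an interval of 0.857 to 1.28.

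Cldn1, a sealing claudin (ENSMUSG00000022512, chr16:26356642-26371841, minus strand), had the smallest p-value and the largest fold change of the 10 members. It had 36, 18 and 17 counts in KO 1, KO 2 and KO 3, against 96, 53 and 134 counts in WT 1, WT 2 and WT 3. Scaled for depth these were 1.85, 1.12 and 0.912 CPM in KO and 4.11, 2.70 and 7.52 CPM in WT. Every KO library lay below every WT library, with WT 3 the highest, and the two-sided exact permutation test gave p = 0.1, which is the lowest value open to 3 against 3 libraries. The log2 fold change was -1.87 ± 0.47 (SE), a KO to WT ratio of 0.273 with an interval of 0.130 to 0.574. The edgeR adjusted p was 0.167, limma-voom gave 0.207 and DESeq2 0.00818. The authors' deposited table lists a log2 fold change of -1.92 and a false discovery rate of 0.00978 for it. Among the other members the lowest deposited rate was 0.112, for Cldn15. DESeq2 no longer called Cldn1 without KO 2 (adjusted p = 0.0847), KO 3 (0.0741), WT 1 (0.0592) or WT 3 (0.207).

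Markers of other cells were read beside Cldn1. The summed level of 8 leukocyte genes was 78.9 to 119 TPM in KO and 264 to 509 TPM in WT. Most of the WT sum came from the neutrophil genes S100a8 and S100a9, with 13.5 to 63.4 TPM in KO and 159 to 447 TPM in WT. The other 6 leukocyte genes summed to 56.0, 56.2 and 65.4 TPM in KO 1, KO 2 and KO 3, against 61.7, 109 and 106 TPM in WT 1, WT 2 and WT 3, and overlapped. The 6 endothelial genes summed to 52.9 to 169 TPM in KO and 199.7 to 216 TPM in WT. Among 7 fibroblast genes the sum was 262 to 1502 TPM in KO and 960.1 to 1874 TPM in WT, and overlapped. All 8 leukocyte, 6 endothelial and 7 fibroblast genes had log2 fold changes below 0. EdgeR called none of them, 7 had an unadjusted p below 0.05 (beside 13% of all tested genes) and DESeq2 called 5 (beside 3.77%). Markers of stratified epithelium, which is rich in claudin-1 in skin, differed among themselves in level. Krt13 had 5 to 6 counts in KO, against 53 counts in WT 1 and 6 each in WT 2 and WT 3. WT 1, the library with the most total counts, also had the most counts of Krt14 (15) and of Dsg3 (18). Krt14 had 5 to 9 counts in KO, 3 in WT 2 and 10 in WT 3. Dsg3 had 3 to 11 counts in KO, 12 in WT 2 and 4 in WT 3. Both genes thus overlapped between genotypes. Ivl had 0 counts in all libraries, Trp63 had 0 to 2 counts in KO and 3 to 8 in WT, and Krt5 at most 3 in KO and 6 in WT. The list's sum was 22.2 to 34.0 TPM in KO and 29.3 to 44.6 TPM in WT. Most of it came from Sprr1a, which had 192 to 292 counts in KO and 257 to 342 in WT. The sum therefore describes mainly that gene and says little of the other markers. Sprr1a, Trp63 and Krt4 (0, 1 and 2 counts in WT 1, WT 2 and WT 3) were highest in WT 3, as was Cldn1. Other genes of the list ran the other way. Krt5 (6, 2 and 0 counts in WT 1, WT 2 and WT 3), Krt15 (8, 5 and 1 counts) and Dsg3 were lowest in WT 3 among the WT libraries. In bulk tissue fewer cells of a type and less RNA per cell cannot be told apart, and the part of these cells in the Cldn1 difference was not tested.

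Neither Cldn3 nor Cldn4, both sealing claudins, differed beyond the spread between libraries. Cldn3 (ENSMUSG00000070473, chr5:134986214-134987472, plus strand) had 376, 354 and 505 CPM in KO 1, KO 2 and KO 3, against 448, 407 and 302 CPM in WT 1, WT 2 and WT 3, with KO 3 highest, WT 3 lowest and the groups overlapping. Its ratio was 1.07 with an interval of 0.744 to 1.53. An antisense gene, Wbscr25, overlaps Cldn3 in the GENCODE M21 annotation, and the sources used here do not say whether reads were counted by strand. Cldn4 (ENSMUSG00000047501, chr5:134945119-134946934, minus strand), which lies 39279 bases from Cldn3, had 48.2, 44.1 and 60.8 CPM in KO, against 79.8, 46.5 and 48.7 CPM in WT. WT 1 was the high library, and the ratio was 0.875 with an interval of 0.601 to 1.27. Without WT 1 the log2 fold change of Cldn4 was 0.09, where it was -0.19 with all libraries.

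Cldn7, the partner of EpCAM (ENSMUSG00000018569, chr11:69964779-69967885, plus strand), had 598, 505 and 638 CPM in KO, against 533, 574 and 452 CPM in WT. The groups overlapped, and the ratio of 1.12 had an interval of 0.824 to 1.51. Epcam itself had 1388 to 1638 CPM in KO and 1198 to 1257 CPM in WT, which did not overlap (log2 fold change 0.28 ± 0.16, SE, edgeR adjusted p = 0.517).

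Cldn8, a sealing claudin that limits sodium passage in the distal colon (ENSMUSG00000050520, chr16:88560828-88563183, minus strand), had libraries of each genotype on both sides. Its levels were 29.8, 53.8 and 21.5 CPM in KO 1, KO 2 and KO 3, against 59.4, 31.3 and 60.6 CPM in WT 1, WT 2 and WT 3. KO 2 stood with WT 1 and WT 3, and WT 2 with KO 1 and KO 3. Its log2 fold change was -0.53 ± 0.37 (SE), a ratio of 0.694 with an interval of 0.386 to 1.25 (edgeR adjusted p = 0.589). In CPM the order of the 6 libraries for Cldn8 was the exact reverse of the order for Cldn15, in which KO 3 was highest, followed by KO 1, WT 2, KO 2, WT 1 and WT 3. Of 14553 tested genes 48 (0.330%) had that reverse order and 66 (0.454%) had the order of Cldn15 itself. On the TPM scale the order of Cldn15 differed, with KO 1 above KO 3 and KO 2 above WT 2.

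Cldn23, a claudin of the colon surface (ENSMUSG00000055976, chr8:35824712-35826559, minus strand), had 52.1, 52.5 and 58.9 CPM in KO, against 46.5, 47.3 and 37.6 CPM in WT. Every KO library lay above every WT library (exact two-sided permutation p = 0.1), with means of 54.5 ± 3.78 CPM in KO and 43.8 ± 5.41 CPM in WT (SD, n = 3 each). The log2 fold change was 0.32 ± 0.15 (SE), a ratio of 1.24 with an interval of 0.985 to 1.57 (edgeR adjusted p = 0.412).

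Ocln, which encodes occludin (ENSMUSG00000021638, chr13:100496507-100552718, minus strand), had 67.1, 97.5 and 79.7 CPM in KO, against 102, 82.9 and 78.9 CPM in WT. The groups overlapped, and the ratio of 0.925 had an interval of 0.699 to 1.22. Its log2 fold change of -0.11 was 0.01 without KO 1 and 5.65e-05 without WT 1.

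**Figure D2:**
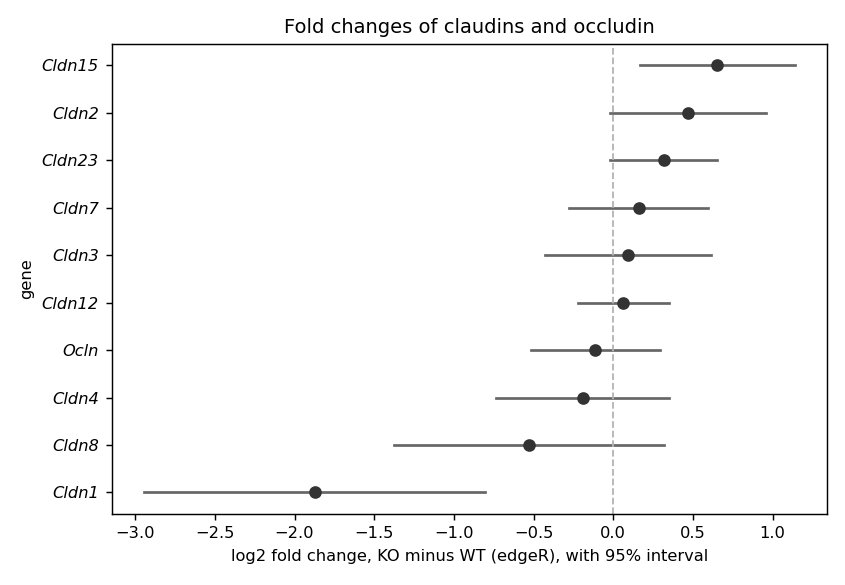
Log2 fold change, KO minus WT, from edgeR for each member, sorted by value (horizontal axis, points) with its 95% interval (lines). The intervals of Cldn15 and Cldn1 do not reach 0, but neither gene passes the threshold after adjustment over all genes.

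The composition of the claudin transcripts was compared within libraries, as each gene's percent of the summed TPM of the 9 claudins. That sum was 1936, 1837 and 2053 TPM in KO 1, KO 2 and KO 3, against 1891, 2011 and 1511 TPM in WT 1, WT 2 and WT 3, and overlapped. Cldn2 and Cldn15 together made up 19.5%, 17.0% and 17.0% of it in the KO libraries, against 10.7%, 16.0% and 14.1% in the WT libraries. Every KO library had the larger share, though WT 2 was close behind KO 2 and KO 3. The means were 17.8% ± 1.42 in KO and 13.6% ± 2.70 in WT (SD, n = 3 each), a difference of 4.26 percentage points (exact permutation p = 0.1, two-sided). Leaving out 1 library gave differences of 2.80 points (without WT 1) to 5.46 points (without WT 2).

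Of the pair Cldn15 had the larger difference, with 9.68% ± 0.965 of the pool in KO and 6.92% ± 1.18 in WT, while Cldn2 had 8.14% ± 0.547 in KO and 6.65% ± 1.53 in WT (SD, n = 3 each). Cldn7 held 43.9% to 45.1% of the pool in KO and 44.0% to 46.2% in WT, and Cldn3 27.4% to 31.8% in KO and 28.8% to 34.4% in WT. Cldn1 was 0.0223% to 0.0524% of the pool in KO and 0.0776% to 0.278% in WT. The shares of 1 library sum to 100%, so that they do not vary independently.

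**Figure D3:**
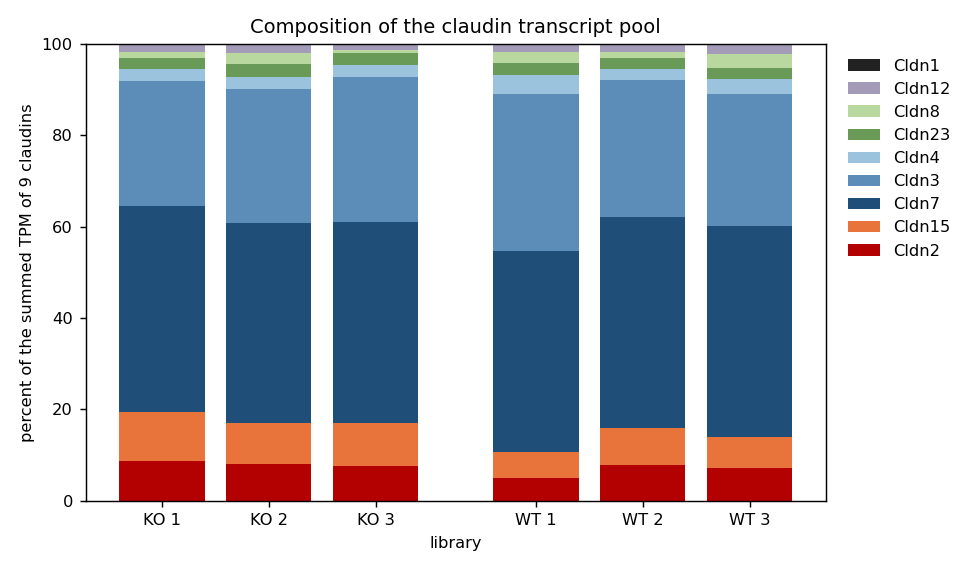
Percent of the summed TPM of the 9 claudins that each gene contributes (stacked bars, vertical axis 0 to 100%) in each KO and WT library. Cldn7 and Cldn3 make up most of each bar, and the Cldn2 and Cldn15 segments together are 17.0% to 19.5% in KO and 10.7% to 16.0% in WT.

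The members were also set against other epithelial RNA of the same library. Each member's log2(CPM + 1) was reduced by the mean of the 11 pan-epithelial genes, which was 9.95 ± 0.14 in KO and 9.88 ± 0.13 in WT (SD, n = 3 each). The added 1 CPM understates differences of scarce genes such as Cldn1. On this scale KO and WT did not overlap in 3 members, beside 17.2% of all tested genes (5.33% higher in KO and 11.9% lower). Which members these were depended on the genes of the scale. Cldn15 was at -2.32 ± 0.20 in KO and -2.90 ± 0.32 in WT, Cldn23 at -4.16 ± 0.06 in KO and -4.40 ± 0.08 in WT, and Cldn1 at -8.78 ± 0.39 in KO and -7.44 ± 0.71 in WT, each at the smallest p of the exact permutation test (p = 0.1). The other 7 overlapped, among them Cldn2, with a difference of 0.42 and an exact permutation p of 0.3. Scaled to Epcam alone, Cldn15 (difference 0.38, exact permutation p = 0.2) and Cldn23 (0.04, exact permutation p = 0.9) overlapped. The members that did not were Cldn1 and Cldn4, both lower in KO, beside 29.7% of all tested genes. Against the scale of 11 genes, Epcam alone shifts the difference of every gene by -0.20. Without overlap 28.4% of all tested genes then lay lower in KO and 1.3% higher. The differences of Cldn15, Cldn23 and Cldn4 on the Epcam scale include that shift, which is not particular to them. With surface colonocyte genes added to the pan-epithelial genes, Cldn15 (0.56, exact permutation p = 0.2) and Cldn23 (0.22, exact permutation p = 0.3) again overlapped, and Cldn1 was the 1 member that did not, beside 12.7% of all tested genes.

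**Figure D4:**
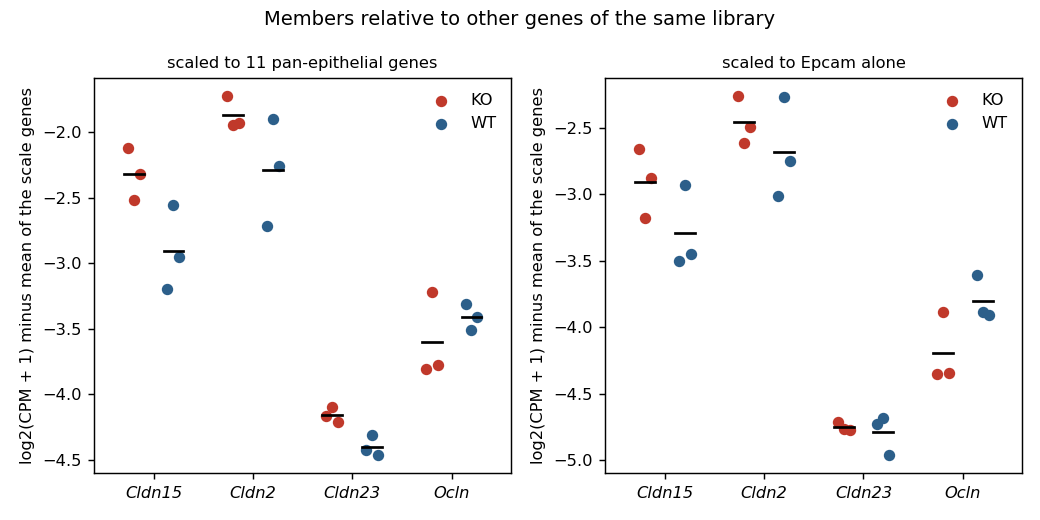
Log2(CPM + 1) of 4 members minus the mean of 11 pan-epithelial genes (left panel) or minus Epcam alone (right panel), for each KO and WT library (points; the bar is the mean). Cldn15 and Cldn23 do not overlap between genotypes in the left panel and do overlap in the right panel, where the difference of every gene is shifted by -0.20.

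The crypt, where claudin-2 is found, had more of its marker RNA in the KO libraries, with 14 genes summing to 266 to 351 TPM in KO and 180 to 241 TPM in WT. All 14 genes of the crypt base and progenitor list had log2 fold changes above 0, with a median of 0.77. EdgeR called none of them, 8 had an unadjusted p below 0.05 (beside 13% of all tested genes) and DESeq2 called 8 (beside 3.77%). Their part in the Cldn2 and Cldn15 differences was not tested. Lgr5, the stem cell receptor, had 8.89, 8.30 and 6.98 CPM in KO 1, KO 2 and KO 3, against 0.513, 2.14 and 2.47 CPM in WT 1, WT 2 and WT 3 (log2 fold change 2.25 ± 0.50, SE, edgeR adjusted p = 0.127). Cdca7, a Myc target, averaged 54.8 CPM in KO and 23.5 CPM in WT (edgeR adjusted p = 0.0720). By unadjusted p Cdca7, Tnfrsf19, Ephb3 and Rnf43 all ranked ahead of Lgr5, which was named outside the rule for named genes.

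The genes whose pattern over the 6 libraries lay nearest to the 3 members with the smallest p-values were sought. The measure was the root mean square difference of centred log2(CPM + 1), among genes with a mean of at least 5 CPM. Nearest to Cldn15 were Mlkl (0.08), A4gnt (0.11) and Cldn2 (0.12). For Cldn2 they were Haspin (0.08), Pola2 (0.08) and Mrm3 (0.08). For Cldn1 they were Il1r1 (0.20), Tspan4 (0.23) and Phyhd1 (0.24), against a spread of Cldn1 itself of 0.74. The added 1 CPM flattens the pattern of Cldn1, which is scarce, more than that of abundant genes. These are log2 differences over 6 libraries and describe likeness of pattern only.

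The other claudins were scarce. Of 23 further Cldn genes 5 passed the filter and 12 had no count in any library, and edgeR and DESeq2 called none, with 0 at an unadjusted p below 0.05. The 9 members held 98.8% to 99.6% of all claudin TPM. Cldn5, the claudin of endothelium, had 3.60 to 5.60 CPM in KO and 5.81 to 7.40 CPM in WT (log2 fold change -0.53 ± 0.26, SE, edgeR adjusted p = 0.425). All 6 endothelial genes also had log2 fold changes below 0, with none called by edgeR, and their part in the Cldn5 difference was not tested. Cldn10 (-1.23 ± 0.72), Cldn14 (0.72 ± 0.54), Cldn9 (0.89 ± 0.50) and Cldn34c1 (-0.03 ± 0.40) averaged 0.412 to 2.40 CPM in the groups, and their log2 fold changes (with SE) did not pass.

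Genes of the junction around the claudins were likewise not called by edgeR. Of 23 tight junction scaffold and membrane genes 8 had log2 fold changes above 0 and 15 below, with a median of -0.06. An unadjusted p below 0.05 was found for 4, beside 13% of all tested genes. Lsr, the angulin that marks the corners where several cells meet, had 104, 81.8 and 79.7 CPM in KO, against 51.1, 60.3 and 59.7 CPM in WT. It did not overlap between genotypes (log2 fold change 0.64 ± 0.15, SE, edgeR adjusted p = 0.156). Lsr was the 1 junction gene that DESeq2 called (adjusted p = 0.0248), beside 3.77% of all tested genes. Pard6b, a polarity protein, had 41.1 to 42.9 CPM in KO and 53.6 to 60.3 CPM in WT (-0.42 ± 0.13, edgeR adjusted p = 0.230). Jam3 (-0.71 ± 0.24) and Jam2 (-0.67 ± 0.27), adhesion molecules that endothelium also makes, had edgeR adjusted p-values of 0.282 and 0.351.

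Among 16 adherens junction and desmosome genes the median log2 fold change was -0.04, and neither edgeR nor DESeq2 called a gene. An unadjusted p below 0.05 was found for 2, beside 13% of all tested genes. The desmosome genes Ppl (-0.44 ± 0.19), Pkp2 (0.31 ± 0.13), Evpl (-0.24 ± 0.14) and Dsp (-0.25 ± 0.18) had edgeR adjusted p-values of 0.382 to 0.603. Of 24 genes reported to act on claudins or junctions 21 were tested, with a median of -0.01 and no edgeR call. An unadjusted p below 0.05 was found for 4 (beside 13% of all tested genes), and DESeq2 called 1, Il6 (beside 3.77%). Il6, a cytokine that raises claudin-2 in cultured epithelium, had 1.08, 1.18 and 0.161 CPM in KO, against 2.05, 5.96 and 3.65 CPM in WT (-2.27 ± 0.66, edgeR adjusted p = 0.220, DESeq2 adjusted p = 0.0195). Il13, another such cytokine, had 0 counts over the KO libraries and at most 3 counts in a WT library and was not tested. Cdx1, an intestinal transcription factor, averaged 337 CPM in KO and 242 CPM in WT (0.48 ± 0.19, edgeR adjusted p = 0.345), Tnfrsf1a, the TNF receptor, 108 CPM in KO and 148 CPM in WT (-0.45 ± 0.18, edgeR adjusted p = 0.343), and Zeb1, a repressor of epithelial genes, 14.4 CPM in KO and 21.0 CPM in WT (-0.54 ± 0.23, edgeR adjusted p = 0.382).

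EdgeR called no gene of the lists for mature cells or muscle. There 8 had an unadjusted p below 0.05 (beside 13% of all tested genes) and DESeq2 called 4 (beside 3.77%). The 11 surface colonocyte genes had a median of 0.06 (Aqp8 0.91 ± 0.35, edgeR adjusted p = 0.335), and the 8 goblet cell genes a median of 0.21 (Agr2 0.91 ± 0.17, edgeR adjusted p = 0.0849, DESeq2 adjusted p = 1.17e-06). All 6 smooth muscle genes had log2 fold changes above 0 (median 0.66), with Actg2 at 1.19 ± 0.25 (edgeR adjusted p = 0.116), and DESeq2 called 3 of them.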

How the data were processed

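RNA was measured by RNA-seq in 6 colon libraries (3 KO, 3 WT), made with a SMARTER mRNA-Seq kit from Trizol-extracted RNA (per the labels' protocols). GRCm38, mm10 and mm39 are named, with no role, in the submitters' processing notes. The sources used here name no aligner, counter or annotation. Read counts per gene were used as the authors deposited them. TPM values deposited by the authors, scaled per length to a fixed total per library, served for levels between genes and the pool shares. Of the deposited log2 fold changes and p-values (with FDR) of the authors, only values of Cldn1 and Cldn15 were quoted.

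All 14553 genes kept by the filter were fitted with edgeR 4.0.16 in R 4.3.3 (quasi-likelihood F-test, TMM factors, filterByExpr by group), with Benjamini-Hochberg adjusted p below 0.05 as a call. Standard errors were derived from the F statistic and are approximate, and 95% intervals use the t distribution with the fit's degrees of freedom. CPM are scaled by TMM factors. DESeq2 1.42.0 and limma 3.58.1 were alternatives. Single values over libraries had exact two-sided permutation tests. Positions come from GENCODE M21 (GRCm38), matched by Ensembl identifier for 10 of 10 members. The members, lists and rule for named genes (members, other tested claudins, and the smallest p-values of each list) were chosen with earlier results of these data known. Epcam and Il13 were added after their values were seen, as were Ivl, Trp63, Krt4, Krt5, Krt13 and Krt15. Lgr5 was also named outside the rule. Every pair of libraries differed by more than counting noise (chi-square per degree of freedom at least 45.0).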

Additional observations from a re-analysis of the deposited data

How the results depend on the processing

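In edgeR the number of members called was 0 with median-ratio or upper-quartile factors, either other filter and an adjusted p below 0.1. It stayed 0 with each library left out, and was 0 in limma-voom and in limma on log2(TPM + 1). It was 1 in DESeq2, beside 3.77% of all tested genes. With 1 library left out in DESeq2, an alternative added after the data were seen, it was 0 to 3. The 3 were Cldn1, Cldn2 and Cldn15 without WT 2. Of the other junction genes DESeq2 called 1 with all libraries, beside the same share of all genes. With 1 library left out it called 0 to 2 (2 without KO 1, 0 without WT 1, WT 2 or WT 3). The share of all genes called was not computed for the DESeq2 fits with 1 library left out. Cldn1 kept its direction in all 21 alternative settings (log2 fold change -2.24 to -1.06), as did Cldn2 (0.32 to 0.71), Cldn15 (0.55 to 0.87), Cldn23 (0.22 to 0.38), Cldn8 (-0.98 to -0.26), Cldn7 (0.07 to 0.25) and Cldn12 (0.01 to 0.12). The adjusted p below 0.1 is among these settings and reuses the main fit, so that its direction could not differ. With 1 library left out, Cldn3 ranged from -0.078 to 0.21, Cldn4 from -0.34 to 0.097 and Ocln from -0.26 to 0.012, and so changed sign; the cause was not tested. The members without overlap on the epithelial scale numbered 3 (17.2% of all genes), 2 with Epcam as the scale (29.7%), 1 with surface colonocyte genes added to the scale (12.7%) and 3 to 6 with 1 library left out. They were 5 without KO 2 and 6 without WT 2, where 28.9% and 24.2% of all genes did not overlap. Scaled to Epcam alone, Cldn3 was at -0.18 and Cldn7 at -0.12, and with surface genes added Cldn3 was at -0.00250. The Epcam scale shifts the difference of every gene by -0.20, and the turned signs of Cldn3 and Cldn7 follow from that shift. A scale of 14 crypt genes, added after the data were seen, shifts the difference of every gene alike, by -0.78, and 73.4% of all genes then lay lower in KO without overlap. On the crypt scale 5 members did not overlap. The signs it turned (Cldn2 -0.36, Cldn15 -0.19, Cldn3 -0.76, Cldn7 -0.69 and Cldn23 -0.54) follow from that shift. They place these members below the mean difference of the crypt genes. With 1 library left out, Cldn12 on the epithelial scale ranged from -0.078 to 0.12 and Cldn3 from -0.070 to 0.080.

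The labels number the libraries in both genotypes but do not say that a number pairs them, and same-numbered libraries had deviations from their group means with correlations of -0.48, -0.18 and -0.50. With the replicate block edgeR again called 0 members and 0 junction genes, Cldn1 stood at -1.80 (adjusted p = 0.263), and the pool share difference of Cldn2 and Cldn15 was 4.26 points with a smallest possible exact p of 0.25. With 3 libraries a group and 17 to 134 counts of Cldn1 per library, counting error and spread both limit that gene.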
